A study of Homo sapiens with 6 samples.

Results

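The Krüppel-like factors (KLFs) examined here are the 10 genes KLF2, KLF3, KLF4, KLF5, KLF6, KLF7, KLF9, KLF10, KLF11 and KLF13, taken by gene symbol from the 24462 symbols counted in each library. The counts list 17 numbered KLF genes in all, and each of the 10 had enough reads to be tested, as did 12650 symbols overall. The cells were MDA-MB 231, a human triple-negative breast cancer line, and RNA was collected 48 h after a transient transfection with Lipofectamine 3000. The study asked how gene expression differs between cells given a negative control (NC) mimic, cells given a miR-200a mimic at 100 nM, and cells given the same mimic together with 30 ng of a plasmid for ELK3, an ETS-family transcription factor of the ternary complex group. Each of the 3 groups had 2 libraries, the dose of the NC mimic is not stated, and all 3 groups are the same line under the same transfection reagent. One label calls the plasmid pcDNA3.1-Flag-ELK3 and another pcDNA3.1 Hygro(+)-ELK3, and it carries the protein coding part of ELK3 without the 3′UTR. Nothing in the labels says whether the 2 libraries of a group came from separate cultures. The p-values therefore measure the spread between these libraries, which may be technical. In the fit of 3 groups used below, that spread is estimated over all libraries together. Libraries were made by QuantSeq, a 3′ method that yields about 1 read for each polyadenylated RNA, and the deposited values are raw read counts per gene symbol.

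KLFs are transcription factors that bind GC-rich promoter boxes and CACCC elements through zinc fingers at the end of the protein. The paralogs differ outside the fingers: KLF2, KLF4, KLF5, KLF6 and KLF7 carry activating regions, KLF3 recruits the CtBP corepressors, and KLF9, KLF10, KLF11 and KLF13 bind the SIN3A corepressor. In breast epithelium KLF4 and KLF5 are known for opposing and context-dependent effects on proliferation and differentiation, and several KLF mRNAs are short-lived and respond quickly to serum, stress and growth factor signals.

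Because miR-200a was the agent added, matches to its seed in the KLF mRNAs are shown first. Mature sequences are from RefSeq, with bases 2 to 8, the seed, in capitals. The second one, of miR-141, has the seed of miR-200a, and the third, of miR-200b, differs from it within the seed.
hsa-miR-200a-3p: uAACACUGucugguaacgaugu
hsa-miR-141-3p: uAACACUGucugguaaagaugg
hsa-miR-200b-3p: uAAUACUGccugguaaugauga

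The letters CAGTGTT, which pair with the miR-200a seed, occurred in the annotated 3′UTR of 4 of the 10 KLF genes, KLF5, KLF6, KLF9 and KLF11, and were absent from that of the other 6. Of the 11241 tested genes with an annotated 3′UTR, 21.83% hold the same letters, and the KLF 3′UTRs are longer, with a median of 2754 nt against 1397 nt. The 4 matches are shown with their surroundings, the match in capitals, from transcripts of GENCODE release 29 on GRCh38. They lie on chr13:73076212-73076241 (plus strand) for KLF5, chr10:3778064-3778093 (minus strand) for KLF6, chr9:70385937-70385966 (minus strand) for KLF9 and chr2:10052942-10052971 (plus strand) for KLF11, each in the 3′UTR part of an exon.
KLF5: atttaatgtgaCAGTGTTcagtaaacaaat
KLF6: aacttgactgtCAGTGTTaaaatggaaaac
KLF9: catcactagcaCAGTGTTtttttgtttaac
KLF11: agccttcttttCAGTGTTtaataacaaagt

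The KLF6 match is followed by an A, a longer form of the site, and the other 3 are not. The matches begin at nt 337 of 1656 in the 3′UTR of KLF5, nt 1471 of 3556 in KLF6, nt 1821 of 3179 in KLF9 and nt 446 of 2329 in KLF11. A match is a description of the letters and not a measured site.

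Checks of the libraries bear on every value below. Total counts ran from 3055915 to 4868004 per library, and at these depths 3 counts, taken as the smallest detectable value, corresponded to 0.611 to 0.979 CPM (CPM being counts scaled to a common library size, here after TMM normalization), a floor that covers counting error only. ELK3, the gene on the plasmid, was read as a check of the labels. Its counts were 618 and 509 under the NC mimic, 493 and 505 under miR-200a, and 406 and 337 under miR-200a with the plasmid. It was thus not higher where the plasmid had been added according to the labels, and this pair is therefore called by its label throughout, as the ELK3-labelled libraries. How reads from the plasmid, which lacks the ELK3 3′UTR, were counted is not given in the sources used here. These counts therefore cannot show whether the plasmid was expressed. The paper reports ELK3 mRNA (by qRT-PCR) and ELK3 protein restored to control levels when the plasmid was added. Of the markers of the line, VIM (4068 to 11179 counts), AXL, CAV1, CD44, S100A4 and ZEB1 were present in all 6 libraries, and ESR1 had 0 counts in all of them. PGR had 0 or 1 count, CLDN3 0 to 7, EPCAM 39 to 140 and ERBB2 99 to 232. CLDN4 (589 to 1143 counts) and CLDN7 (123 to 416 counts) were not low, although the line is classed as claudin-low. In the fits below, 2 of these markers were called in the ELK3-labelled libraries, CD44 at -0.61 and CLDN7 at -1.21 on the log2 scale against miR-200a (edgeR adjusted p = 0.0151 and 0.0058). Against the NC mimic they were called at -0.58 and -0.88 (edgeR adjusted p = 0.0181 and 0.0191). Each CD44 call was lost in 5 of 14 alternative fits. The CLDN7 calls were lost in 2 against miR-200a and in 5 against the NC mimic. The summed level of 6 luminal markers (ESR1, PGR, GATA3, FOXA1, TFF1 and KRT8) was 82.8 and 87.8 CPM with the NC mimic, 121 and 124.6 CPM with miR-200a, and 74.5 and 101 CPM in the ELK3-labelled libraries. Most of this sum was KRT8, with group means of 79.5, 114.8 and 82.5 CPM in that order. KRT8 was not called with miR-200a against the NC mimic (0.53, edgeR adjusted p = 0.315). GATA3 had 14 to 42 counts, and ESR1, PGR, FOXA1 and TFF1 had at most 3. The part of this sum in the results was not tested. In bulk RNA, fewer cells of a kind and less RNA per cell cannot be told apart.

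All 10 KLF genes had a fitted log2 fold change below 0 in the ELK3-labelled libraries, against either of the other groups, although KLF3 against the NC mimic was at -0.0033 and turned above 0 with no filter on low counts, and 6 passed the test in each of these comparisons, where 12.9% of all tested genes did. With miR-200a alone 0 passed in the fit of 3 groups, where 0.269% of all genes did, and the fitted changes fell on both sides of 0. This count changed with the libraries in the model, as given below. The 10 genes were chosen with earlier results of these data known. Their counts and medians beside those of all genes are therefore descriptive. The individual genes are described by the kind of factor they encode, with the CPM in every library and positions on GRCh38 from GENCODE release 29, and the tests follow.

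**Figure D1:**
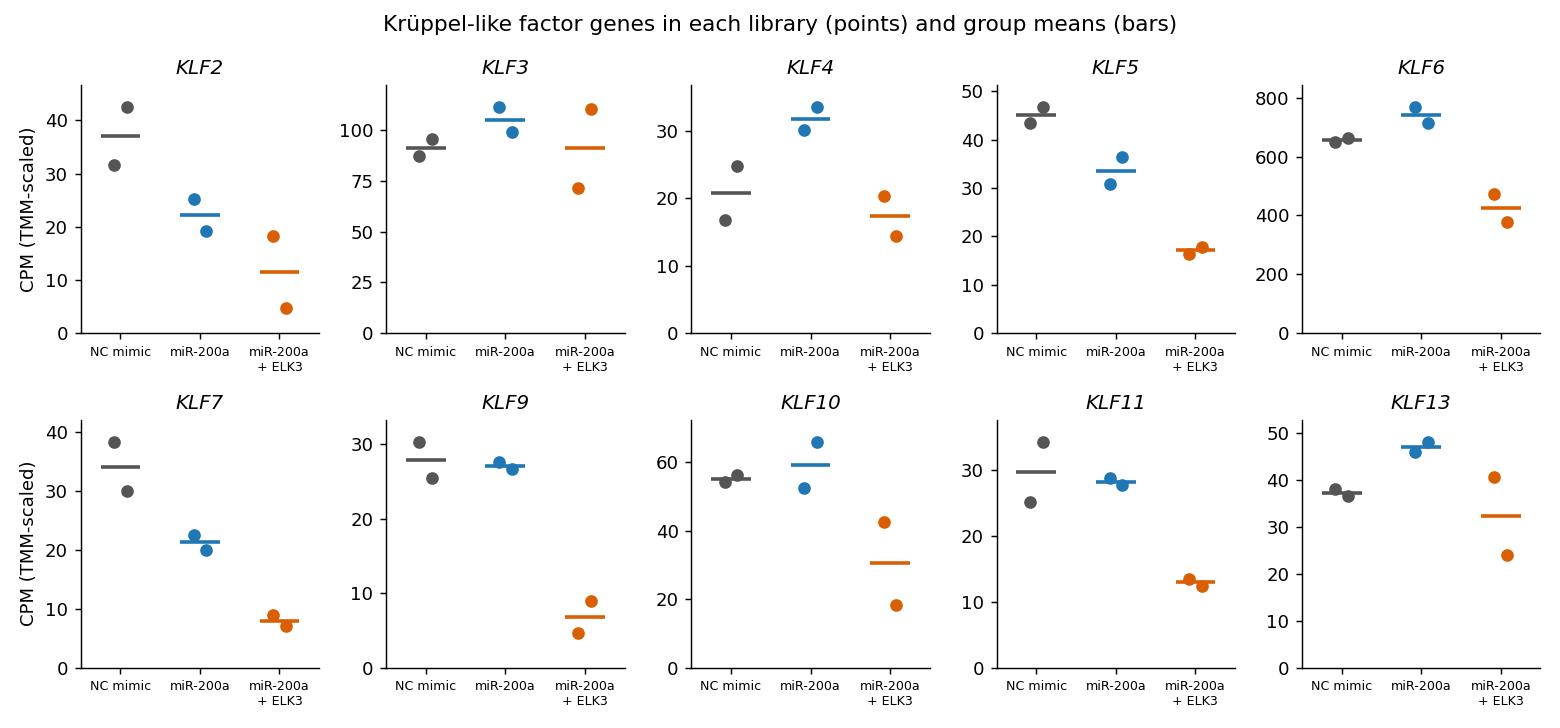
CPM (TMM-scaled, linear axis from 0) of each of the 10 KLF genes in the 6 libraries, with a point for each library, replicate 1 on the left, and a bar at the mean of the 2 libraries in a group. KLF5, KLF7, KLF9 and KLF11 form a low pair in the ELK3-labelled libraries, whereas KLF3 spans 71.8 to 110.5 CPM there and covers the range of the NC mimic pair.

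KLF2, a factor of endothelial and lymphocyte quiescence (chromosome 19, 16324817 to 16327874, plus strand), had 31.6 and 42.4 CPM with the NC mimic, 25.1 and 19.2 CPM with miR-200a, and 18.2 and 4.70 CPM in the ELK3-labelled libraries. The groups did not overlap and descended in that order, yet the last pair was 3.88-fold apart, with 77 counts in one library and 20 in the other. This was the widest gap between replicates among the 10 genes in any group. KLF4, known as one of the factors that reprogram cells to pluripotency (chromosome 9, 107484852 to 107490482, minus strand), had 16.7 and 24.8 CPM with the NC mimic, 30.1 and 33.4 CPM with miR-200a, and 20.4 and 14.3 CPM in the ELK3-labelled libraries. Both miR-200a libraries lay above the other 4, which overlapped each other. KLF5, a factor of proliferating epithelium (chromosome 13, 73054976 to 73077542, plus strand), had 43.4 and 46.7 CPM, then 30.7 and 36.5 CPM, then 16.3 and 17.9 CPM in the same order of groups. Its 3 groups were separate, and the replicates of each were close.

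KLF6, a factor often lost or spliced differently in tumours (chromosome 10, 3775996 to 3785281, minus strand), was counted most often of the 10, with at least 1608 counts in each library, although counts are not scaled by length or by 3′ end usage and do not rank the genes. It had 651 and 665 CPM with the NC mimic, 768 and 715 CPM with miR-200a, and 473 and 378 CPM in the ELK3-labelled libraries. No 2 groups overlapped, the miR-200a pair being the highest and the ELK3-labelled pair the lowest. KLF7, known for its part in neuron outgrowth (chromosome 2, 207074137 to 207167267, minus strand), had 38.3 and 30.0 CPM, 22.6 and 20.0 CPM, and 9.0 and 7.05 CPM in the same order. Again the 3 groups were separate, and the last pair lay below every other library. KLF7-IT1, MIR2355 and MIR7845 lie within the KLF7 gene but not in its last 1000 bases, where 3′ reads are expected to fall.

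KLF3, the CtBP-binding repressor (chromosome 4, 38664196 to 38701042, plus strand), had 87.3 and 95.6 CPM with the NC mimic, 111 and 99.2 CPM with miR-200a, and 71.8 and 110.5 CPM in the ELK3-labelled libraries. The last pair spanned the other 4 libraries except for a single one, so no order of the groups can be read from it. KLF3-AS1 overlaps the gene on the other strand, outside its last 1000 bases.

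Among the SIN3A-binding members, KLF9, a glucocorticoid- and thyroid hormone-induced repressor (chromosome 9, 70384597 to 70414624, minus strand), had 30.3 and 25.5 CPM with the NC mimic, 27.6 and 26.7 CPM with miR-200a, and 4.74 and 8.93 CPM in the ELK3-labelled libraries. The first 4 libraries overlapped and the last 2 lay far below them, at 20 and 38 counts. KLF11, a TGF-beta-inducible repressor (chromosome 2, 10042849 to 10054836, plus strand), had 25.2 and 34.3 CPM, 28.9 and 27.7 CPM, and 13.5 and 12.5 CPM in the same order. The pattern was that of KLF9, with overlapping NC mimic and miR-200a libraries and a low last pair. Its last 1000 bases overlap AC104794.4 on the other strand, and since the strand setting of the counting is not given in the sources used here, reads of the 2 genes may not be separable. KLF10, the other TGF-beta-inducible member, had 54.1 and 56.1 CPM, 52.3 and 65.8 CPM, and 42.6 and 18.3 CPM. KLF13, a regulator of RANTES (CCL5) in T cells (chromosome 15, 31326855 to 31435665, plus strand), had 38.1 and 36.6 CPM, 46.1 and 48.1 CPM, and 40.7 and 24.0 CPM. For both genes replicate 2 was the low library of the ELK3-labelled pair, and for KLF13 replicate 1 of that pair lay above the NC mimic libraries. The pseudogene UBE2CP4 lies within KLF13, outside its last 1000 bases.

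The ELK3-labelled pair was the least even for these genes. The absolute log2 difference between the replicates had a median over the KLF genes of 0.56 in that pair, 0.19 in the NC mimic pair and 0.16 in the miR-200a pair, against 0.33, 0.19 and 0.15 over all tested genes. In that pair, KLF2, KLF4, KLF6, KLF7, KLF10, KLF11 and KLF13 were lower in replicate 2, whereas KLF3, KLF5 and KLF9 were lower in replicate 1.

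With miR-200a against the NC mimic, which asks what the mimic alone does, 0 of the 10 KLF genes passed an adjusted p of 0.05 in edgeR's quasi-likelihood test, where 0.269% of all tested genes did (34 of 12650). DESeq2 and limma also called 0. At an unadjusted p under 0.05 there were 3, KLF4, KLF5 and KLF7, where 9.24% of all genes passed. For KLF7 the log2 fold change was -0.69 (standard error 0.22, edgeR adjusted p = 0.343) and for KLF4 it was 0.63 (standard error 0.25, edgeR adjusted p = 0.487). For KLF5 the value was -0.42 (standard error 0.18, edgeR adjusted p = 0.526). KLF2 had the lowest fitted value, -0.73, with a 95% interval of -1.64 to 0.18. The remaining 6 genes ran from -0.06 for KLF11 to 0.33 for KLF13. The median over the 10 genes was 0.03, against -0.02 over all tested genes. The study's criteria were also applied, in a reading chosen here. It takes an unadjusted edgeR p under 0.05, a fold change over 1.5 and a mean log2 normalized count over 3. The paper names other software, and it states neither a p adjustment nor the scale of its expression cut. The genes it selected were not compared with those found here. In this reading, called the study's criteria below, 2 of the 10 met them, KLF4 on the higher and KLF7 on the lower side. Of all genes, 4.57% met them. The number of the 10 that met them moved up in some fits with a library left out and down in others. The share of all genes in those fits is not given. Over 14 alternatives, the log2 fold change ran from 0.36 to 0.93 for KLF4 and from -0.85 to -0.49 for KLF7.

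The result of this comparison changed with the libraries in the model. The fit of 3 groups estimates spread from all libraries, so it includes the ELK3-labelled pair, which is outside this comparison. The median replicate gap over all tested genes was 0.33 in that pair, the widest of the 3 groups. The lack of KLF calls in that fit thus rests partly on the spread of libraries that were not compared. With only the NC mimic and miR-200a libraries in the model, 4 of the 10 KLF genes passed by edgeR, KLF4 (adjusted p = 0.0281) and KLF6 (adjusted p = 0.046) higher and KLF2 (adjusted p = 0.0144) and KLF7 (adjusted p = 0.0149) lower with miR-200a, where 7.89% of all genes did. The count was also 4 in the fit of all 3 groups without ELK3-labelled replicate 1, and again without ELK3-labelled replicate 2, where 7.51% and 7.71% of all genes passed. Of the 4 genes with a seed match, KLF5, KLF6, KLF9 and KLF11, none passed the test in the fit of 3 groups, and the log2 fold changes were -0.42, 0.17, -0.04 and -0.06. Their 95% intervals were -0.82 to -0.02, -0.11 to 0.46, -0.60 to 0.52 and -0.54 to 0.42.

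**Figure D2:**
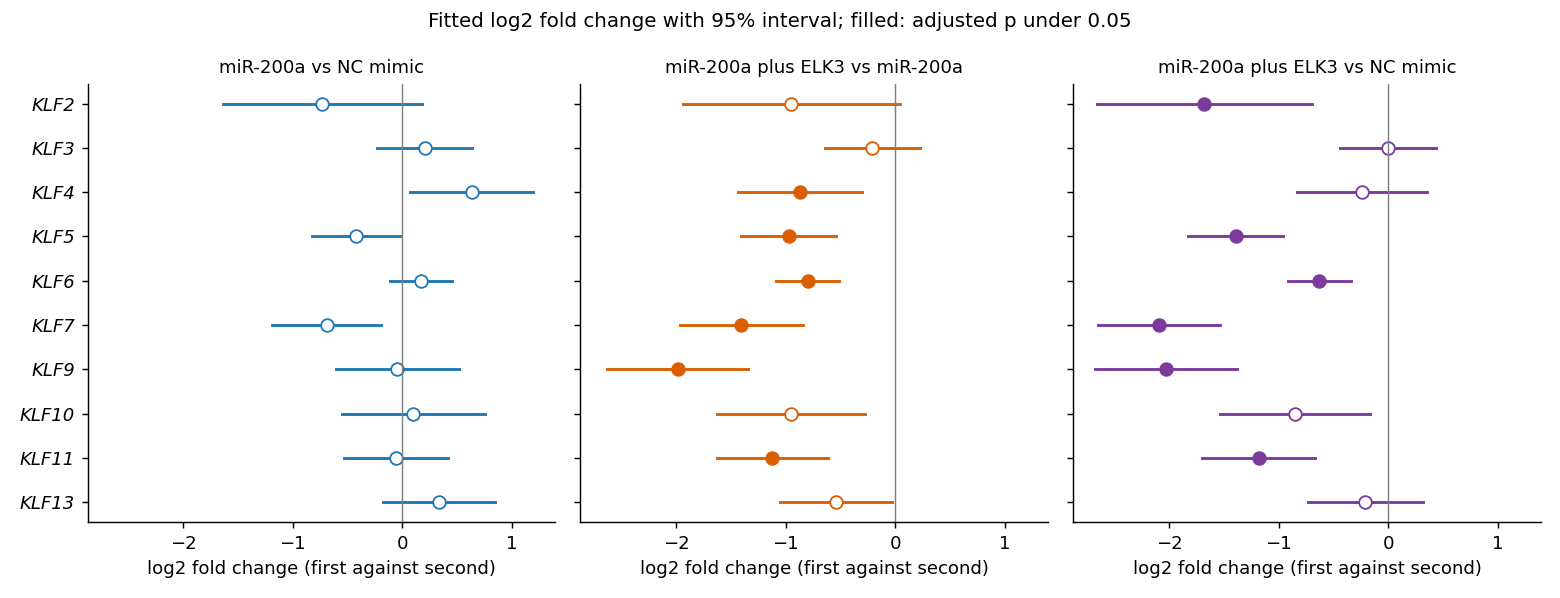
Fitted log2 fold change of the 10 KLF genes in the 3 comparisons (x axis, first-named group against the second), with the 95% interval as a line and a filled point where edgeR's adjusted p was under 0.05. With miR-200a the values scatter about 0 and no point is filled, and in both comparisons of the ELK3-labelled libraries all 10 points lie at or below 0 and 6 are filled.

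The labels of the ELK3-labelled libraries and those of the miR-200a libraries differ by the plasmid, and they do not say whether an empty plasmid was given in its place. KLF9 fell by 1.98 on the log2 scale (standard error 0.29, edgeR adjusted p = 0.00412), a 3.96-fold lower level. KLF7 fell by 1.41 (standard error 0.25, edgeR adjusted p = 0.00919), or 2.65-fold, and KLF11 by 1.12 (standard error 0.23, edgeR adjusted p = 0.0145), or 2.18-fold. KLF5 fell 1.96-fold, KLF4 1.83-fold and KLF6 1.74-fold, with edgeR adjusted p-values of 0.0137, 0.0491 and 0.00628. In the libraries themselves, for each of these 6 genes, both ELK3-labelled libraries lay below both miR-200a libraries. The 6 genes were picked by the test on the same counts, so this separation describes them and adds no support. The share of all genes with such a separation is not given here. In all, 6 of the 10 KLF genes passed, all 6 lower, where 12.9% of all tested genes passed in either direction and 5.91% on the lower side. The other 4 log2 fold changes, with the edgeR adjusted p in parentheses, were -0.95 for KLF10 (0.0648), -0.95 for KLF2 (0.181), -0.54 for KLF13 (0.143) and -0.21 for KLF3 (0.504). For KLF3 the 95% interval was -0.64 to 0.22, and for KLF2 it was -1.94 to 0.04, its ELK3-labelled replicates being 3.88-fold apart. The median over the 10 was -0.95 against 0.02 over all tested genes, and all 10 values were below 0, as were 48.8% of all. By the study's criteria 7 of the 10 were lower, KLF10 in addition to the 6, where 19.1% of all genes met them. KLF4 met these criteria in opposite directions in the 2 comparisons, higher with miR-200a and lower again in the ELK3-labelled libraries, and KLF7 met them as lower in both, though these comparisons share the miR-200a libraries.

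The number of calls depended on the libraries included, for the KLF genes and for all genes alike. Without miR-200a replicate 1 or 2, 0 of the 10 passed, where 0.378% and 0.239% of all genes did, and the lone library left in that group was assumed to vary like the other groups. The fitted values of KLF9 were then -1.96 and -2.01 (edgeR adjusted p = 0.0765 and 0.0686) and those of KLF7 were -1.31 and -1.49, close to the values above. Without ELK3-labelled replicate 1, 9 of the 10 passed, where 35.7% of all genes did, with KLF2 at -2.24 and KLF3, the exception, at 0.06. Without ELK3-labelled replicate 2, the count was 8, where 22.1% of all genes passed, with KLF3 now among them and KLF2 (-0.31) and KLF13 (-0.24) not. KLF4 was no longer called with the replicate number as a block (adjusted p = 0.0752), with limma (adjusted p = 0.0546), or without either NC mimic library (adjusted p = 0.0776 and 0.0790). In a model of the ELK3-labelled and miR-200a libraries alone, 4 of the 10 were called, where 4.38% of all genes were, KLF4 (adjusted p = 0.0772) and KLF5 (adjusted p = 0.0502) being lost.

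Compared with the NC mimic, which asks whether the plasmid together with the mimic returns expression to the control level, the same libraries also had low KLF levels. KLF7 fell by 2.09 on the log2 scale (standard error 0.25, edgeR adjusted p = 0.00123), or 4.27-fold, and KLF9 by 2.03 (standard error 0.29, edgeR adjusted p = 0.00313), or 4.08-fold. KLF2 fell by 1.68 (standard error 0.44, edgeR adjusted p = 0.0335), or 3.20-fold, with a 95% interval of -2.66 to -0.70. KLF5 fell 2.63-fold, KLF11 2.27-fold and KLF6 1.55-fold, with edgeR adjusted p-values of 0.0027, 0.0118 and 0.0144. Again 6 of the 10 passed, all lower, where 12.9% of all genes passed in either direction and 5.95% on the lower side. With the edgeR adjusted p in parentheses, the remaining values were -0.85 for KLF10 (0.0940), -0.24 for KLF4 (0.593), -0.21 for KLF13 (0.597) and -0.0033 for KLF3 (0.993), whose 95% interval was -0.44 to 0.43. The median over the 10 was -1.02 against 0.01 over all tested genes, and 49.1% of all genes were below 0. The study's criteria were met by 7 of the 10, all lower, KLF10 again being added, where 19.4% of all genes met them. The 2 comparisons of the ELK3-labelled libraries share these libraries and are not independent.

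Calls over all genes fell to 0.748% without NC mimic replicate 1 and to 0.736% without NC mimic replicate 2. Of the 10 KLF genes, KLF7 alone passed in the first of these fits (edgeR adjusted p = 0.0447), and KLF7 (adjusted p = 0.0210) and KLF9 (adjusted p = 0.0436) passed in the second. KLF7 passed under all 14 alternatives tried for this comparison. KLF2 was lost with DESeq2 (adjusted p = 0.123) and in a model of the 2 groups alone (adjusted p = 0.0742), where KLF6 was lost too (adjusted p = 0.0558) and 4.79% of all genes were called. Without either miR-200a library, KLF2 (adjusted p = 0.0735 and 0.0750) and KLF6 (adjusted p = 0.0576 and 0.0595) were likewise not called. Leaving out ELK3-labelled replicate 1 moved KLF2 to -2.95 and KLF10 to -1.58, and leaving out ELK3-labelled replicate 2 moved them to -1.01 and -0.38.

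**Figure D3:**
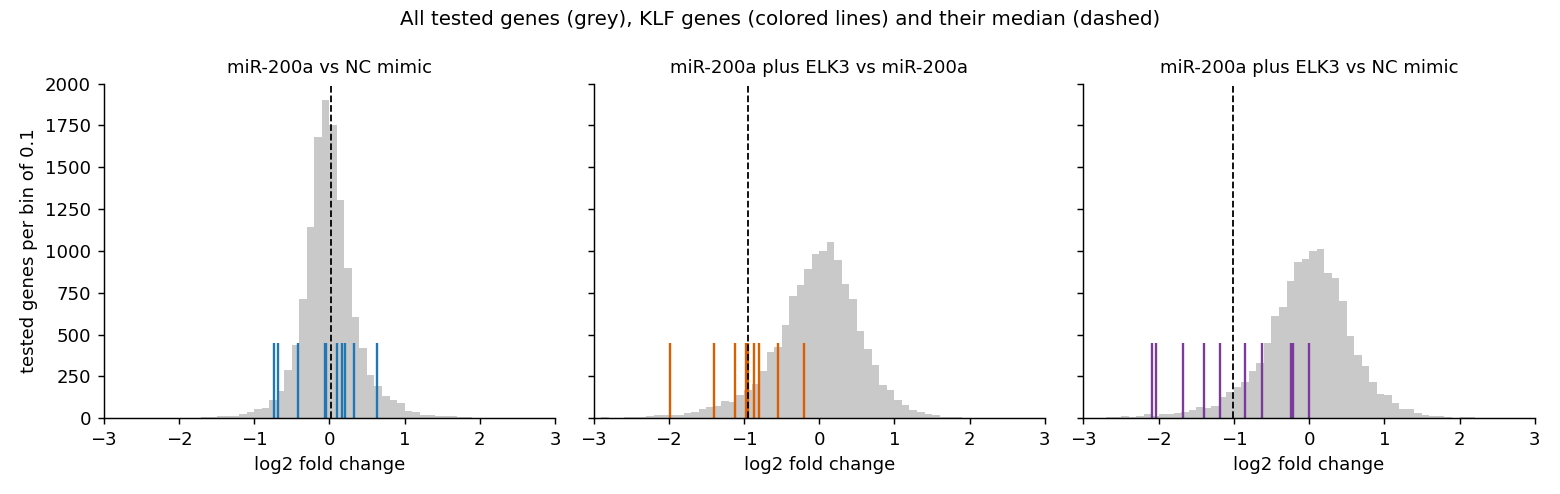
Distribution of the fitted log2 fold changes of the 12650 tested genes in each comparison (grey bars, genes per bin of 0.1), with the 10 KLF genes as colored lines of arbitrary height and their median as a dashed line. The KLF median is at 0.03 with miR-200a, close to that of all genes, and at -0.95 and -1.02 in the comparisons of the ELK3-labelled libraries.

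The balance of higher and lower genes depended on the scaling of the libraries. With TMM, 889 genes were higher and 748 lower in the ELK3-labelled libraries than under miR-200a, and with upper-quartile scaling 622 were higher and 882 lower. Against the NC mimic the numbers were 876 and 753 with TMM, and 677 and 902 with upper-quartile scaling. The KLF medians were -1.02 and -1.08 with the latter, and all 10 KLF values stayed below 0 in both comparisons.

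The other KLF genes were given by a list of 8, of which 7 were in the counts and 4, KLF12, KLF15, KLF16 and KLF17, had enough reads. KLF12, which like KLF3 binds CtBP, was counted 77 and 51 times under the NC mimic, 64 and 64 times under miR-200a, and 29 and 15 in the ELK3-labelled libraries. It fell by 1.34 against miR-200a (edgeR adjusted p = 0.0271) and by 1.70 against the NC mimic (edgeR adjusted p = 0.0112). The first call was lost in 5 of 14 alternatives, which were the model of the 2 groups alone and the fits without either NC mimic or either miR-200a library (adjusted p up to 0.179), and the second without either NC mimic library (adjusted p up to 0.105). KLF15 had values of -0.77 and -1.03 and KLF16 values of 0.03 and 0.43, none of them called. KLF1, the erythroid member, had 0 counts in every library, which allows up to 3 counts in each. KLF14 had 0 to 2 counts, KLF8 2 to 8, and KLF17 3 to 12 with no call. The SP genes, the closest relatives of the KLFs with the same kind of zinc fingers, were listed as 9 and tested as 6, and 0 passed in any comparison by edgeR, DESeq2 or limma. At an unadjusted p under 0.05 there was 1, in the ELK3-labelled libraries against the NC mimic, where 3873 of 12650 tested genes had such a p. Their median log2 fold changes were -0.12 for miR-200a, 0.01 for the ELK3-labelled libraries against miR-200a, and -0.03 against the NC mimic.

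Among 9 cofactor genes, all tested, CREBBP, the acetyltransferase that KLF proteins recruit, was the only one called, where 12.9% of all tested genes were. It was 0.61 higher in the ELK3-labelled libraries than with miR-200a (edgeR adjusted p = 0.0481). Against the NC mimic its value was also 0.61 (edgeR adjusted p = 0.05001), which is not past the threshold. The call was lost in 12 of 14 alternatives, among them DESeq2 (adjusted p = 0.0988), limma (0.0788), upper-quartile scaling (0.0729) and the replicate block (0.0743), although the value stayed between 0.43 and 0.73. With upper-quartile scaling and with limma, the cofactor called was instead SIN3B, part of the SIN3 corepressor, at -0.47 and -0.48 (adjusted p = 0.0467 and 0.046). For miR-200a against the NC mimic, CTBP1 was called with only those libraries in the model, at 0.38 (edgeR adjusted p = 0.00394), where 7.89% of all genes were. In the fit of 3 groups CTBP1 was at 0.36 (edgeR adjusted p = 0.514). The list of ubiquitin ligases reported to act on KLF proteins held 8 genes. FBXO32 alone was called, in both comparisons of the ELK3-labelled libraries, where 12.9% of all tested genes were. Its counts were 819 and 581 under the NC mimic, 845 and 901 under miR-200a, and 205 and 153 in the ELK3-labelled libraries, and it fell by 2.09 against miR-200a (edgeR adjusted p = 0.000178) and by 2.14 against the NC mimic (edgeR adjusted p = 0.00014). Both calls were kept under all 14 alternatives. FBXO32, also called atrogin-1, is better known from muscle atrophy.

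The upstream list held 10 genes of the MEK5, ERK5 and MEF2 route to KLF2 and KLF4 and of the ternary complex, and 9 were tested. In the ELK3-labelled libraries, MEF2A fell by 0.61 against miR-200a (edgeR adjusted p = 0.0221) and by 0.50 against the NC mimic (edgeR adjusted p = 0.0423). MEF2D fell by 0.98 against miR-200a (edgeR adjusted p = 0.0481) and had a value of -0.95 against the NC mimic (edgeR adjusted p = 0.0550). SRF, the partner of the ternary complex factors on DNA, was higher by 0.69 (edgeR adjusted p = 0.0153) and by 0.73 (edgeR adjusted p = 0.0114). ELK3 itself was called lower against the NC mimic only, by 0.79 (edgeR adjusted p = 0.0117). The calls of SRF and ELK3 were lost in 2 of 14 alternatives each, those without a library of the group compared with. Those of MEF2A were lost in 5 and 8 and that of MEF2D in 6, including with the replicate block MEF2A against the NC mimic (adjusted p = 0.0745) and MEF2D against miR-200a (adjusted p = 0.0539). With miR-200a alone, 0 of the 9 passed in edgeR's test of 3 groups, where 0.269% of all genes did. At an unadjusted p under 0.05 there were 2, where 9.24% of all genes passed. ELK3 was among them, at -0.56 (edgeR adjusted p = 0.232). With only the NC mimic and miR-200a libraries in the model, ELK3 was called lower, at -0.54 (edgeR adjusted p = 0.000305), where 7.89% of all genes were called.

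Of 19 genes described elsewhere as KLF targets, 15 were tested, and those called moved in both directions. CCND1, the cell cycle gene cyclin D1, had 247 and 256 CPM with the NC mimic, 338 and 339.9 CPM with miR-200a, and 633 and 693 CPM in the ELK3-labelled libraries. All 3 pairs were separate and rose in that order. The last pair was higher by 0.97 than with miR-200a (edgeR adjusted p = 0.00181) and by 1.40 than with the NC mimic (edgeR adjusted p = 0.00019). CCNB1, a mitotic cyclin, was higher by 0.60 than with miR-200a (edgeR adjusted p = 0.0209). LGALS3, the lectin galectin-3, fell by 0.73 and 0.86 against miR-200a and the NC mimic (edgeR adjusted p = 0.0149 and 0.00748), and SMAD7, an inhibitor of TGF-beta signalling, fell by 1.39 against the NC mimic (edgeR adjusted p = 0.0427). MAOB was called lower against miR-200a, but with 13 and 15 counts there and 0 and 2 in the ELK3-labelled libraries, at the floor, so no fold is given. CCND1 was called under all 14 alternatives against the NC mimic and lost against miR-200a only without either miR-200a library (adjusted p up to 0.0765). CCNB1 and LGALS3 against miR-200a were lost in 5 of 14, LGALS3 against the NC mimic in 2, SMAD7 in 6 and MAOB in 8 of 13. With miR-200a alone 0 of the 15 passed in the fit of 3 groups, where 0.269% of all genes did. An unadjusted p under 0.05 was found for 4, where 9.24% of all genes had one. With only the NC mimic and miR-200a libraries in the model, CCND1 was called higher with miR-200a, at 0.45 (edgeR adjusted p = 4.15e-05), where 7.89% of all genes were called. These lists were compiled from general knowledge of the family with results of these data known, so their counts are descriptive.

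KLF7 had the widest range of group means among the 10, 2.06 on the log2 CPM scale. The 5 other genes whose log2 CPM followed it most closely over the 6 libraries, among 5733 with a mean log2 CPM of at least 5, were EXT1, FN1, MT2A, SNX2 and PHF20, with Pearson r of 0.993 down to 0.989. FN1, the matrix protein fibronectin, had 491.5 and 478 CPM with the NC mimic, 321 and 322 CPM with miR-200a, and 119 and 96.4 CPM in the ELK3-labelled libraries. Pearson r does not measure the size of a change, and the others changed less than FN1. In NC mimic replicate 1 and ELK3-labelled replicate 2, EXT1 had 179.9 and 102 CPM and MT2A 6061 and 4096 CPM. In the same libraries SNX2 had 100.7 and 69.6 CPM and PHF20 135.8 and 75.9 CPM. The points share libraries, depth and group, and no p-value is given for these r values.

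The promoters of the KLF genes were read for boxes that KLF, SP, ETS or SRF factors are known to bind, from RefSeq sequence of GRCh38.p14 that spans 250 bases before to 50 after each annotated start. The table of promoters holds 8 of the 10 KLF genes. The GC box GGGCGGG, on either strand, occurred in 7 of these 8, against 36.7% of 27305 genes, and KLF9 had none. The ETS core CCGGAAG occurred in 0 of the 8, against 12.2% of genes. The cyclic AMP element TGACGTCA was found for KLF11 alone (2.25% of genes) and the CArG box, the SRF element, for KLF7 alone (1.604% of genes). Both rarer matches are shown, in capitals, at chr2:10044034-10044063 (plus strand) and chr2:207167290-207167319 (minus strand).
KLF11: atttccagccaTGACGTCAccccggtcctg
KLF7: aaccacactaaCCATTTAAGGtcaagcaaa

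The KLF11 match ends 169 bases before one of its 2 annotated starts and the KLF7 match ends 53 bases before one of its 4 starts. These are matches of letters, and nothing was measured on binding at them.

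**Figure D4:**
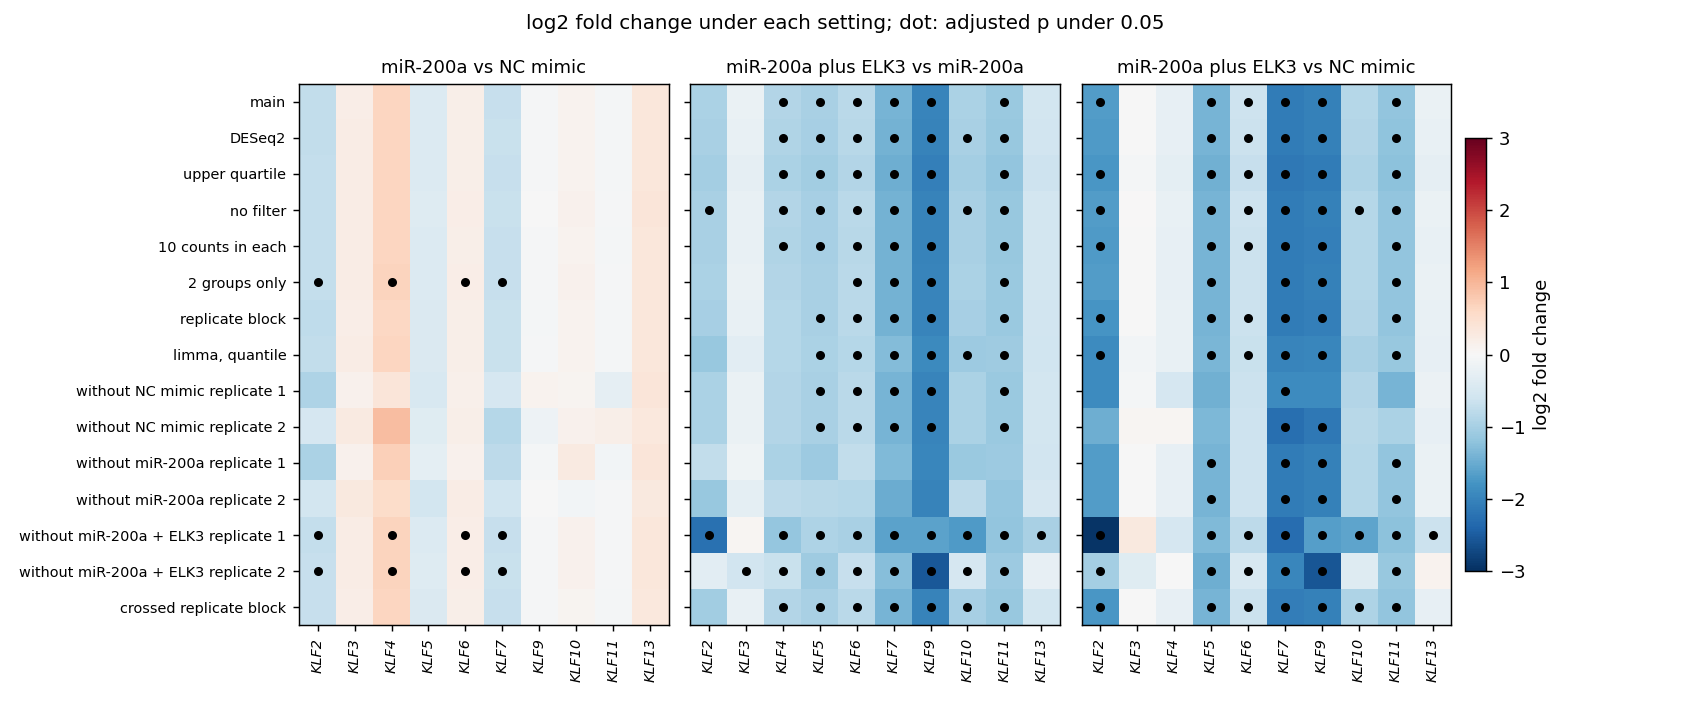
Fitted log2 fold change (color, blue lower and red higher in the first-named group) of each KLF gene as reported (top row, named main) and under 14 alternatives, with a dot where the adjusted p was under 0.05. KLF7 against the NC mimic has a dot in every row, the middle panel has none in the rows without a miR-200a library, and dots for miR-200a against the NC mimic appear only in the fits without the ELK3-labelled libraries or without either of them.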

How the data were processed

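RNA of 6 libraries from MDA-MB 231 cells was measured by QuantSeq 3′ sequencing. The authors deposited raw read counts per gene symbol for each library, without normalization. The submitters' processing notes name Bowtie2, edgeR and the build hg19. The counting program, annotation and strand setting are not given in the sources used here. The files read here, 6 in number, hold no column of other samples and no line without a gene.

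The 286 symbols on several of the 25737 lines were summed. Groups came from the labels. Differences were fitted by the quasi-likelihood method of edgeR 4.0.16 under R 4.3.3 (TMM, filterByExpr at a minimum count of 10, all 6 libraries in a model of 3 groups, leaving 3 residual degrees of freedom), and p-values were adjusted over the 12650 tested genes by the Benjamini-Hochberg method. A gene was called at an adjusted p under 0.05. The procedure was run on simulated counts with known changes placed in the miR-200a group only, drawn with the spread fitted here. Only miR-200a against the NC mimic was checked, so the run does not bear on the comparisons of the ELK3-labelled libraries. Total counts ranged from 3055915 to 4868004 (median 4444804), so genes near 3 counts are not resolved, and this floor covers counting error only.

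Alternatives were DESeq2 1.42.0, upper-quartile scaling, no filter, at least 10 counts in each library, a model of the compared groups alone, the replicate number as a block, limma 3.58.1 on quantile-normalized log2(count + 1), each library left out in turn, and the study's criteria. The distances of libraries from the mean of their group, set against those of the library with the same number in the other group, correlated at -0.004, -0.03 and -0.11 in the 3 comparisons, and the labels do not say that numbers pair libraries, so the block remained an alternative. The genes named are the 10 KLF genes, ELK3, genes of each list that were called in any comparison, and the 5 genes most like the KLF gene with the widest range. KLF1, KLF8, KLF14, KLF15, KLF16, KLF17, CD44, CLDN7, KRT8, SIN3B and CTBP1 were named in addition, after their values were seen. The KLF genes and the lists were chosen with earlier results of these data known. GENCODE release 29 (GRCh38) gave positions and 3′UTRs and RefSeq (GRCh38.p14) gave miRNAs and promoters. Since the counts carry no coordinates, no positions were converted. Protein sequences, qRT-PCR and animal data were not used here, except that the qRT-PCR and protein results for ELK3 are cited from the paper.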

Additional observations from a re-analysis of the deposited data

How the results depend on the processing

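Between miR-200a and the NC mimic, the 34 genes called in the fit of 3 groups became 88 with DESeq2, 230 with no filter, 983 with only those 2 groups in the model, and 0 to 1010 when a library was left out. The KLF genes called were 0, then 4 with only those 2 groups in the model and 0 to 4 with a library left out, and 2 met the study's criteria (0 to 3 with a library left out). Between the ELK3-labelled and the miR-200a libraries, 1637 genes became 2490 with no filter, 542 with only the 2 groups in the model and 31 to 4684 with a library left out, and the 6 KLF genes became 0 to 9 with a library left out. Between the ELK3-labelled and the NC mimic libraries, 1629 genes became 2525, 587 and 96 to 4675 under the same settings, and the 6 KLF genes became 1 to 8 with a library left out.

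With the replicate block, the comparisons gave 13, 1157 and 1170 genes, and 0, 5 and 6 KLF genes, KLF4 being the call that was lost. Crossing the replicate numbers of the groups in the block, chosen after seeing the data, gave 22, 1644 and 1661 genes and 0, 7 and 7 KLF genes. The remaining counts of all genes and of the 10 KLF genes called were within 1.5 times those of the fit of 3 groups. Counts over the short lists moved by more under several settings. Against miR-200a, the cofactors called ranged from 0 to 4, the other KLF genes from 0 to 2 and the SP genes from 0 to 1.

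Of 420 values of a KLF gene under an alternative, 351 kept direction and side of the threshold, 34 were no longer called, 26 became called and 9 changed sign, all 9 in values that were not called. With a library left out, the log2 fold change for miR-200a against the NC mimic ran from -0.16 to 0.094 for KLF9, from -0.075 to 0.26 for KLF10 and from -0.28 to 0.17 for KLF11. In the ELK3-labelled libraries, KLF3 ran from -0.58 to 0.059 against miR-200a and, against the NC mimic, from -0.36 to 0.28. KLF4 ran from -0.51 to 0.055 and KLF13 from -0.64 to 0.11 against the NC mimic. With no filter, KLF3 was at 0.0087 against the NC mimic. The cause of these shifts was not tested. The ELK3 count was not higher where the labels place its plasmid, and it cannot show whether the plasmid was expressed. With 2 libraries a group, an effect of the plasmid cannot be told apart from other differences between the libraries.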
